A study of Drosophila melanogaster with 3 samples.

Results

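The genes described here encode the ecdysone receptor, its partner, and transcription factors that act in the response to the hormone in Drosophila melanogaster. They were chosen by name: of 10 listed genes, those with array features annotated to that gene alone were taken. Of these, 7 genes (EcR, usp, Eip78C, Hr39, Hr3, ftz-f1 and Hr38) had 19 features, out of 10805 genes with features of their own. Eip74EF, Eip75B and Hr4, for which no feature carried that name alone, were not analysed here. The 7 measured genes all encode nuclear receptors, while Eip74EF, on the same list, encodes an ETS-domain factor.

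Each of 3 mutant samples was total RNA from 2 pairs of pooled ovaries, dissected from flies about 7 days old in an independent experiment (pools 1, 2 and 3). Their germ line came from pole cells of sva53 embryos, made by germline clones homozygous for sva53[M1] with the FLP/FRT/DFS system. The control was 1 RNA from 3 pairs of ovaries of the same age that carried the progeny of sva53/+ pole cells, and it was hybridised with every mutant pool on 2-colour Agilent arrays. All pole cells, mutant and control, were placed in host embryos laid by osk-homozygous females, so somatic cells of both kinds of ovary, follicle cells included, were host cells. The mutant RNA carried Cy3 and the control RNA Cy5 on all 3 arrays, and no dye swap was among them to average out dye effects. Mutant pole cells also came from mutant germ line mothers, while the mothers of the sva53/+ pole cells are not described, so a maternal effect and the genotype of the germ line cannot be told apart. The test of a ratio against 0 leaves out the spread of the control, which was sampled once.

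Ecdysone is a steroid hormone that binds EcR. EcR works as a dimer with Usp, the fly homologue of the vertebrate retinoid X receptors, and the pair switches on early genes, many of which encode nuclear receptors that in turn act on later genes. In adult females the ovary itself makes ecdysone, and the hormone is known to act there in germline stem cell maintenance, in the progress of egg chambers into yolk uptake, in eggshell formation and in ovulation. Both germ cells and follicle cells can use the receptor, and a whole ovary measures them together. In such samples fewer cells of a type and less RNA per cell cannot be told apart.

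The authors deposited a log10 ratio per feature and array, and values below are log2 ratios of sva53 over sva53/+ ovaries. The labels do not state the numerator. The direction given here is likely, not stated, and rests on the array software writing red (Cy5) over green (Cy3). With the other numerator every sign below turns, and the genes called higher become genes called lower. The arrays had a median log2 ratio of 0 before features were averaged, with SDs over features of 0.34 to 0.49. No intensities were used here, so a level, the presence of a transcript or the labelled tissue could not be checked against markers, and the number of arrays limits the precision.

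EcR and Hr39 were higher in sva53 ovaries, by about the same modest amount, and no other gene of the 7 passed the test. EcR encodes the hormone receptor itself. Hr39 encodes an orphan receptor of the same family as Ftz-f1 and is known for its part in the secretory cells of the female reproductive tract. Tested across all 15415 features (features of 1 gene averaged, limma, Benjamini-Hochberg adjusted p under 0.05), 2 of the 7 genes rose and 0 fell, while 6.62% of everything tested rose and 7.23% fell. Of the 15415, 10805 were genes, and the rest were single features not annotated to 1 gene. Shares among genes alone are not given here. At an unadjusted p under 0.05, limma gave ftz-f1 besides EcR and Hr39, but 36.3% of everything tested lay under that cut. Without any single pool neither gene was called: the adjusted p without pools 1, 2 and 3 was 0.0905, 0.180 and 0.146 for EcR and 0.0890, 0.209 and 0.151 for Hr39. In those fits limma called 0 of 15415 features, the genes named below included, while 4710, 3277 and 4304 features had an unadjusted p under 0.05. With so few genes the count is a description, and the median log2 ratio of the 7 genes was 0.14, against -0.003 over all features tested.

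EcR read 0.34, 0.35 and 0.45 in sva53 pools 1, 2 and 3. It lay above the sva53/+ level in 3 of 3 pools, and the pools were close to each other. Its mean was 0.38 ± 0.06 (SD, n = 3), or 1.30-fold, with a 95% interval of 0.24 to 0.53 and an adjusted p of 0.0364 with limma. The median size of the changes called over all features was 0.446 log2, larger than that of EcR.

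The partner gene usp read -0.08, -0.09 and 0.06 in sva53 pools 1, 2 and 3. These values lay on both sides of the sva53/+ level. The mean was -0.04 ± 0.09 (SD, n = 3), the 95% interval ran from -0.20 to 0.13, and the adjusted p was 0.688 with limma. As folds, that interval is 0.87 to 1.09. EcR exceeded usp in 3 of 3 pools, by 0.42 ± 0.03 (SD, n = 3), a difference between their log2 ratios for which no test was run. The ratios of the genes of the dimer therefore differed by more than the spread between pools, as the plot of the 7 genes by pool shows.

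**Figure D1:**
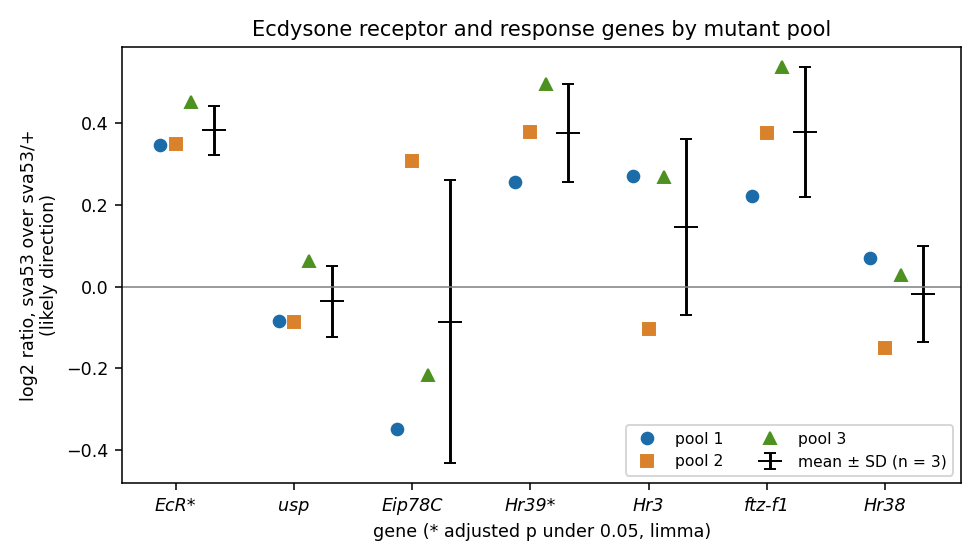
Log2 ratio of sva53 over sva53/+ (vertical axis, likely direction) for the 7 genes, with a symbol for each mutant pool and the mean ± SD (n = 3) in black. EcR, Hr39 and ftz-f1 lie above 0 in every pool with means between 0.375 and 0.381, while the pools of usp, Eip78C, Hr3 and Hr38 fall on both sides of 0.

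Hr39 read 0.25, 0.38 and 0.49 in sva53 pools 1, 2 and 3. All 3 pools lay above the sva53/+ level, pool 3 the highest and pool 1 the lowest. The mean was 0.38 ± 0.12 (SD, n = 3), or 1.30-fold, with an adjusted p of 0.0457 with limma, close to the threshold. It missed the threshold when arrays were scaled to the same spread (adjusted p 0.0501 with limma).

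The gene ftz-f1 encodes the orphan receptor that gives tissues the competence to respond to a later hormone pulse at metamorphosis, and it is a close relative of Hr39. It read 0.22, 0.38 and 0.54 in sva53 pools 1, 2 and 3, all above the sva53/+ level and the widest apart of the 3 genes. The mean of 0.38 ± 0.16 (SD, n = 3) equalled that of Hr39 to 2 decimals, but the adjusted p was 0.0573 with limma and the gene was not called. It passed with array weights (adjusted p 0.0147 with limma) and with its feature of smallest SD (0.0260), a choice that favours a low p. These settings called 37.7% and 22.2% of everything tested. The gene did not pass with arrays scaled to the same spread, with a robust prior or with grid trends removed (adjusted p 0.0648, 0.0602 and 0.0693 with limma).

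Eip78C encodes an early-response orphan receptor related to Eip75B. It read -0.35, 0.31 and -0.22 in sva53 pools 1, 2 and 3, with pool 2 on the other side of the sva53/+ level from the rest. The mean was -0.09 ± 0.35 (SD, n = 3), the widest SD of the 7 genes, and the adjusted p was 0.716 with limma. As folds, the 95% interval was 0.70 to 1.26, and a decrease as large as the rise of EcR lies inside it.

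Hr3 encodes the fly homologue of the vertebrate ROR receptors and is known as an activator of ftz-f1 at the onset of metamorphosis. It read 0.27, -0.10 and 0.27 in sva53 pools 1, 2 and 3, with pool 2 apart and below the sva53/+ level. The mean was 0.14 ± 0.21 (SD, n = 3), the 95% interval ran from -0.13 to 0.42, and the adjusted p was 0.361 with limma. A rise as large as that of EcR or ftz-f1 lies inside this interval.

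Hr38, which encodes an orphan receptor that can also pair with Usp, read 0.07, -0.15 and 0.03 in sva53 pools 1, 2 and 3. The pools straddled the sva53/+ level and pool 2 was again the lowest. The mean was -0.02 ± 0.12 (SD, n = 3) and the adjusted p 0.866 with limma. As folds, its 95% interval was 0.87 to 1.12, which ends below the mean of EcR.

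Ordered by mean log2 ratio the genes ran EcR, ftz-f1, Hr39, Hr3, Hr38, usp and Eip78C. EcR and ftz-f1 differed by 0.004 ± 0.11, and ftz-f1 and Hr39 by 0.001 ± 0.04 (SD, n = 3 each), so these neighbours did not differ beyond their spread. Hr39 exceeded Hr3 by 0.23 ± 0.25, in 2 of 3 pools, again within the spread. Hr3 exceeded Hr38 by 0.16 ± 0.10, in 3 of 3 pools. Hr38 and usp differed by 0.02 ± 0.12, and usp and Eip78C by 0.05 ± 0.38, both within the spread. The larger step was thus between the 3 highest genes and Hr38 or usp: Hr39 exceeded usp by 0.41 ± 0.07 and ftz-f1 exceeded usp by 0.41 ± 0.09, each in 3 of 3 pools. None of these differences between genes was tested.

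Features of the same gene did not give the same ratio, and the gene means above hide this. Fitted on their own among 21939 features, 6 of the 19 rose and 0 fell, against 7.89% of all features that rose and 7.33% that fell (limma, adjusted p under 0.05). The 6 belonged to EcR (2 of 4), Hr39 (3 of 4) and ftz-f1 (1 of 2), and 13 features did not pass. The place of each feature in its transcript is not given in the sources used here, so a feature cannot be tied to an isoform.

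For EcR, feature 14636 read 0.81, 0.71 and 0.85 in sva53 pools 1, 2 and 3, a mean of 0.79 ± 0.07 (SD, n = 3), or 1.73-fold, with an adjusted p of 0.0306 with limma. Feature 5188 read 0.34, 0.39 and 0.39, a mean of 0.38 ± 0.03 (SD, n = 3), and passed at 0.0346 with limma. The others averaged 0.21 ± 0.14 and 0.15 ± 0.04 (SD, n = 3 each) and did not pass, with adjusted p of 0.135 and 0.115 with limma. All 4 features lay above the sva53/+ level in every pool, but their sizes were separate. Feature 14636 exceeded feature 5188 by 0.41 ± 0.08 and the lowest feature, 17616, by 0.64 ± 0.06 (SD, n = 3 each), in 3 of 3 pools. Without feature 14636 the mean of EcR was 0.24 and its adjusted p 0.0597 with limma. EcR was called with its feature of smallest SD alone, feature 5188 (0.38; adjusted p 0.0260 with limma), and with the median of its features (0.29; adjusted p 0.0495). The span of 0.64 between its features was not unusual: 64.8% of the 105 genes with 4 features had a smaller one.

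For Hr39, 3 features were tightly grouped and the remaining one went the other way. Feature 7243 read 0.69, 0.68 and 0.72 in sva53 pools 1, 2 and 3, and feature 3259 read 0.67, 0.68 and 0.64. Their SDs over the pools, both 0.02, compare with a median of 0.123 over all single features. Feature 16399 read 0.53, 0.50 and 0.62, and these 3 features passed with adjusted p between 0.0306 and 0.0329 with limma. Feature 3777 read -0.86, -0.36 and -0.01, a mean of -0.41 ± 0.43 (SD, n = 3) with an adjusted p of 0.199 from limma. Most of the difference between pools in the gene mean comes from that feature, since the 3 others differed little between pools. Without feature 3777 the gene mean was 0.64 and the adjusted p 0.0317, while without feature 3259, 7243 or 16399 the means were 0.28, 0.27 and 0.32 and the adjusted p 0.0972, 0.0964 and 0.0678 with limma. The span of 1.11 between its features was larger than in 94.3% of the 105 genes with 4 features.

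For ftz-f1, feature 21469 read 0.51, 0.61 and 0.60 in sva53 pools 1, 2 and 3. Its mean was 0.57 ± 0.06 (SD, n = 3), or 1.49-fold, with an adjusted p of 0.0329 with limma. Feature 4742 read -0.07, 0.14 and 0.47, a mean of 0.18 ± 0.27 (SD, n = 3) with an adjusted p of 0.346 from limma. The features differed by 0.39 ± 0.23, in 3 of 3 pools, and the spread of the gene mean over the pools came mostly from feature 4742. Without that feature ftz-f1 was called (adjusted p 0.0333 with limma).

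**Figure D2:**
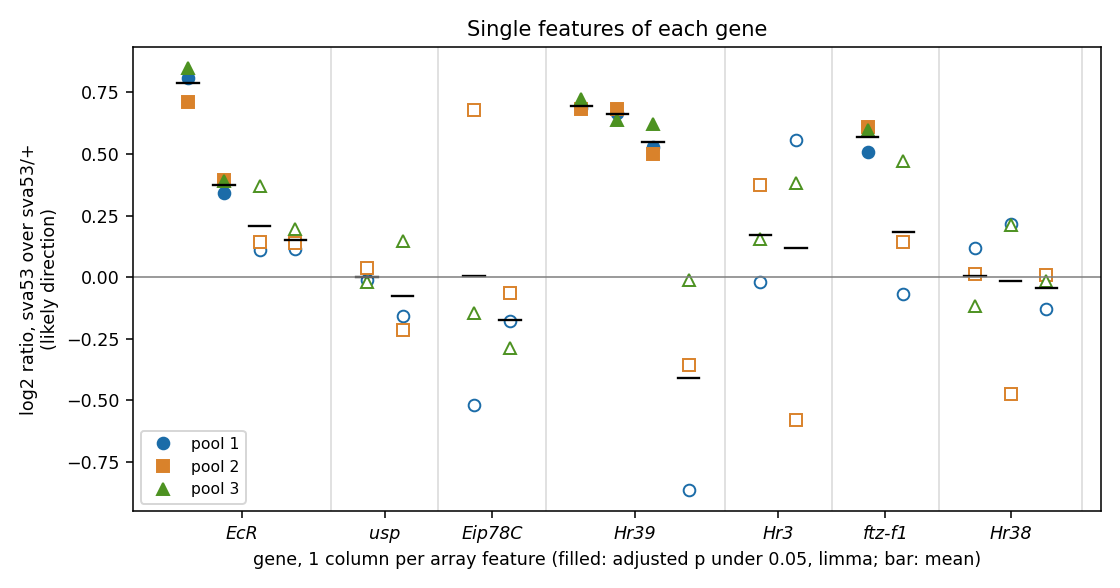
Log2 ratio of sva53 over sva53/+ (vertical axis, likely direction) of the 19 single features, grouped by gene, with a symbol for each mutant pool, a bar for the mean and filled symbols where the feature passed (limma, adjusted p under 0.05). Hr39 has 3 tight features between 0.55 and 0.70 and another at -0.41, and EcR spans 0.15 to 0.79.

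Among the genes that were not called, no single feature passed. The features of usp averaged 0.002 ± 0.03 and -0.07 ± 0.19 (SD, n = 3 each). Those of Hr38 averaged between -0.04 and 0.006. Within Hr3, feature 20044 read 0.56, -0.58 and 0.38 in sva53 pools 1, 2 and 3, while feature 17207 read -0.02, 0.38 and 0.15, so the pool that was low on the first was the highest on the second. The low value of pool 2 for Hr38 came likewise from feature 9587, at -0.47, while the others there read 0.01 and 0.008. For Eip78C, feature 3700 read -0.52, 0.68 and -0.15, and feature 7816 stayed below the sva53/+ level in 3 of 3 pools with a mean of -0.18 ± 0.11 (SD, n = 3; adjusted p 0.144 with limma). None of the 19 features was deposited as exactly 0 on any array, a value that can mark a missing measurement.

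The genes most like EcR in their ratios over the 3 pools were Sbf, for a protein of the myotubularin family, and bon, for a cofactor of nuclear receptors. Likeness was the Euclidean distance of log2 ratios over the 3 pools, 0.030 for Sbf and 0.037 for bon. For Hr39 they were Nhe1, which encodes a sodium and proton exchanger, and ftz-f1, at distances of 0.039 and 0.055. Such likeness over 3 arrays is common: 47 genes lay within a distance of 0.1 of EcR and 22 of Hr39.

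The plot of the 7 genes among all measured genes places EcR and Hr39 just past the threshold and ftz-f1 just short of it, in a region shared with many other genes.

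**Figure D3:**
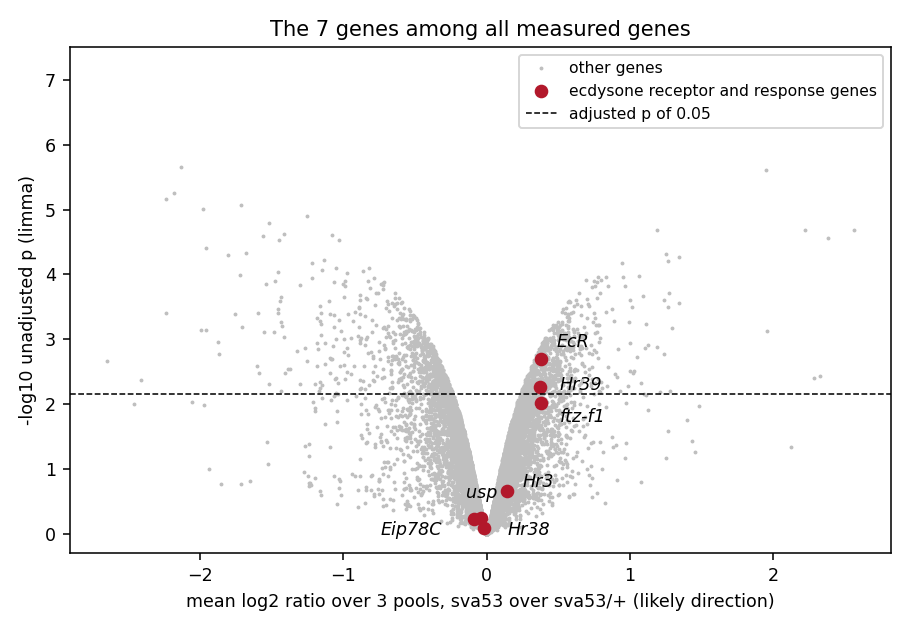
Mean log2 ratio of sva53 over sva53/+ (horizontal axis, likely direction) against -log10 of the unadjusted p from limma (vertical axis), 1 grey point per gene, with the 7 genes in red and the adjusted p of 0.05 as a dashed line. EcR and Hr39 lie above the line, ftz-f1 just below it, and the others lower.

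The 7 genes were spread over the chromosomes in RefSeq's gene table for fly genome Release 6: EcR and Hr3 on 2R, Hr38 and Hr39 on 2L, Eip78C and ftz-f1 on 3L, and usp on X. While 6.62% of everything tested rose and 7.23% fell, 1 of the 14 nearest measured protein-coding genes on either side of them was called. That gene, CG31626 beside Hr39, averaged -0.32 ± 0.07 (SD, n = 3; adjusted p 0.0433 with limma), opposite to Hr39. The neighbours of EcR were Ars2, at -0.04, and Cyp6w1, at 0.15 ± 0.82 (SD, n = 3), and neither passed (adjusted p 0.568 and 0.775 with limma).

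Other nuclear receptor genes were set beside the 7. Of 12 measured, 1 rose and 0 fell, while 6.62% of everything tested rose and 7.23% fell. The means of the 12 lay between -0.18 and 0.38 with a median of 0.04. Counts in this list and in those below were not tested against these shares. The gene that rose was Hr96, for a receptor known in xenobiotic response and lipid balance. It read 0.32, 0.30 and 0.52 in sva53 pools 1, 2 and 3, with a mean of 0.38 ± 0.12 (SD, n = 3; adjusted p 0.0462 with limma). Its features disagreed, at 0.84 and -0.08, and with the feature of smallest SD the sign turned.

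Among receptor partners and cofactors, 2 of 15 measured genes rose, 2 fell and 11 did not pass, with a median of 0.06. The shares of everything tested were 6.62% higher and 7.23% lower. The gene rig, which encodes a protein needed for ecdysone responses, read 0.71, 0.61 and 0.44 in sva53 pools 1, 2 and 3, with a mean of 0.59 ± 0.14 (SD, n = 3; adjusted p 0.0346 with limma). Its features were alike, at 0.70 and 0.47. The cofactor gene bon averaged 0.39 ± 0.05 (SD, n = 3; adjusted p 0.0352 with limma), but with features at 0.76 and 0.02. The genes that fell belong to another hormone on this list: Met encodes a receptor of juvenile hormone and Kr-h1 a zinc-finger factor induced by it. Met averaged -0.35 ± 0.04 and Kr-h1 -0.30 ± 0.06 (SD, n = 3 each; adjusted p 0.0367 and 0.0440 with limma). Met was low in 3 of 3 pools at -0.39, -0.33 and -0.33, on a single feature, and the features of Kr-h1 averaged -0.44 and -0.15.

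Of 16 measured response genes outside the nuclear receptors, 0 rose, 1 fell and 15 did not pass, with a median of -0.02. This count is near the shares of everything tested, 6.62% higher and 7.23% lower. ImpL2, which encodes a secreted protein that binds insulin-like peptides, read -1.14, -0.63 and -0.61 in sva53 pools 1, 2 and 3. On its single feature the mean was -0.79 ± 0.30 (SD, n = 3; adjusted p 0.0430 with limma). The early gene br, named after its values were seen, read -0.30, -0.09 and -0.16, with a mean of -0.18 ± 0.11 (SD, n = 3) and an adjusted p of 0.133 from limma. Its 10 features ran from -0.80 to 0.26.

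Genes of hormone synthesis, uptake and breakdown had 0 of 13 measured members higher, 2 lower and 11 not passing, with a median of -0.26. Everything tested had 6.62% higher and 7.23% lower. GstE14, needed for ecdysone synthesis, averaged -0.97 ± 0.09, and dib, a cytochrome P450 of the same route, -0.35 ± 0.11 (SD, n = 3 each; adjusted p 0.0290 and 0.0479 with limma). In the plot of the pathway lists the receptor gene EcR stood on the other side of 0 from both called synthesis genes, a contrast that was not tested. The means of the 13 genes lay on both sides of 0, from -1.13 to 0.11.

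**Figure D4:**
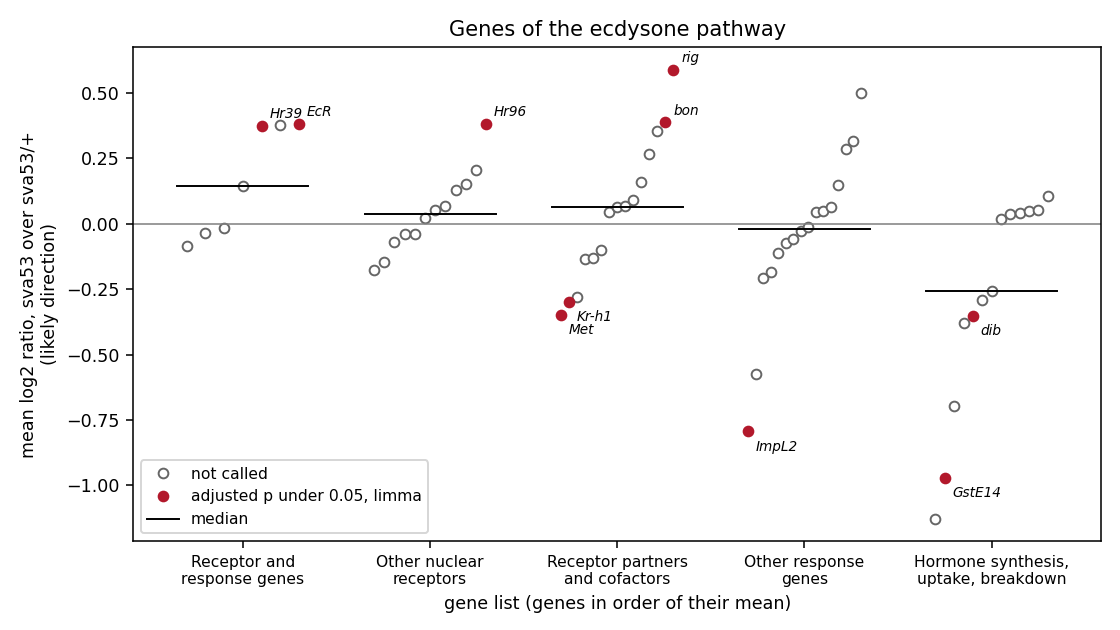
Mean log2 ratio over 3 pools of sva53 over sva53/+ (vertical axis, likely direction) for the 7 genes and 4 lists of the ecdysone pathway, each gene a circle in order of its mean, filled red where called (limma, adjusted p under 0.05), with a line at the list's median. The 2 called genes of the first column lie at 0.38, and those of hormone synthesis at -0.97 and -0.35.

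Markers of late egg chambers and of other cell types differed between the pools. The 10 measured eggshell genes, which late follicle cells express, had a median of -2.65 in sva53 pool 1, -0.26 in pool 2 and -0.02 in pool 3. Their means ran from -1.85 (Fcp3C) to -0.28 (Cp7Fc), and 0 of 10 passed. The 10 fat body genes, among them 3 yolk protein genes that follicle cells also express, had medians of -1.38, -0.26 and -0.18, from -1.80 (Pepck1) to 0.39 (Lsp2), and 4 fell. The 8 muscle genes had medians of -0.04, 0.24 and 0.08, from -0.22 (Act79B) to 0.36 (Argk1), and the 9 hemocyte genes -0.18, 0.24 and 0.11, from -0.58 (srp) to 0.52 (Sr-CI), with 0 called in either list. The 10 germ line genes had medians of -0.15, -0.04 and -0.01, from -0.37 (c(3)G) to 0.72 (Rbp9), with 1 higher and 1 lower. Over everything tested, 6.62% rose and 7.23% fell.

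Pool 1, the lowest for eggshell and fat body medians, was also the lowest for the gene means of EcR, Hr39 and ftz-f1. Pool 3 was the highest for all of these, though pools 1 and 2 of EcR were nearly equal. The called features of the 3 genes did not follow this order. Pool 2 was the lowest on EcR feature 14636 and Hr39 features 7243 and 16399, and pool 3 on Hr39 feature 3259. On EcR feature 5188 and ftz-f1 feature 21469 pool 2 was the highest. The order was that of features not called, namely 14523 and 17616 of EcR, 3777 of Hr39 and 4742 of ftz-f1. A small SD over the pools helps a feature to be called, so this split by call partly follows from the test. No conclusion about the markers is drawn from it. EcR, Hr39 and ftz-f1 lay above the sva53/+ level in each pool. In pool 3 the eggshell median was near 0 and the fat body median was -0.18. The 4 called fat body genes, Obp99b, Lsd-1, Pepck1 and CG10650, read -0.86, -1.38, -2.02 and -0.35 there. Yp1, Yp2, Yp3 and Lsp2 of the same list lay above 0 in pool 3, at 0.13, 0.04, 0.16 and 0.08. Without pool 1 the means were 0.40 for EcR, 0.44 for Hr39 and 0.46 for ftz-f1, against 0.38 for each with it. The part of the marker differences in these results was not tested. Each array held 1 pool, so a difference of a pool and one of its array cannot be told apart.

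**Figure D5:**
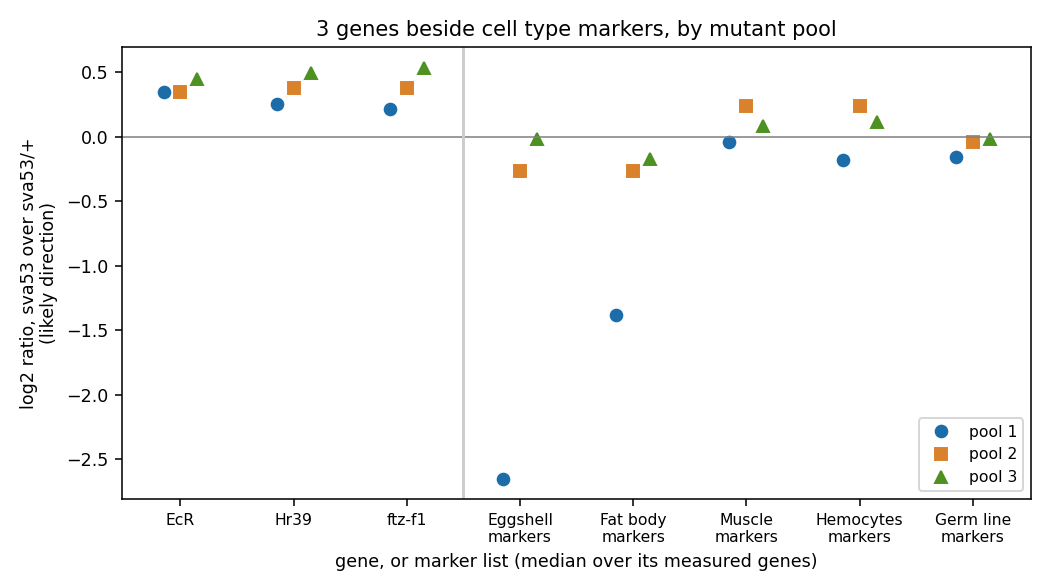
Log2 ratio of sva53 over sva53/+ (vertical axis, likely direction) in each mutant pool for EcR, Hr39 and ftz-f1, and for 5 marker lists as the median over their measured genes. The eggshell median is -2.65 in pool 1, -0.26 in pool 2 and -0.02 in pool 3, while the 3 genes stay between 0.22 and 0.54.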

How the data were processed

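RNA of 3 sva53 ovary pools was measured against 1 sva53/+ ovary RNA on 2-colour arrays. The deposited values are log10 ratios. Per the submitters' processing notes, Agilent Feature Extraction 7.1 made them. How background and dyes were corrected, and the ratio's numerator, are not stated in the labels. The log10 scale was read from the values, whose lowest is exactly -2. From 100 ng of total RNA, per the labels, RNA was amplified linearly.

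The sign was turned and log2 taken, 636 features at the grid edge were left out, and features of 1 gene (17329 features, 10805 genes, 10801 matched to RefSeq) were averaged per array. No centring was added. All 15415 features were fitted with limma 3.58.1 in R 4.3.3 (intercept, eBayes, 2-sided) and adjusted by Benjamini-Hochberg; single features were fitted likewise. The procedure was tested on simulated data. Genes were named by a fixed rule: all listed genes with a feature, up to 2 highest and 2 lowest called genes of each pathway list, the 2 genes nearest to each called gene, and the extremes of each marker list. Others are marked in the text. The genes and lists were chosen with earlier results of these data known. Alternatives covered centring, scaling, the prior, array weights, the features used, exact zeros, grid trends, thresholds and each array left out.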

Additional observations from a re-analysis of the deposited data

How the results depend on the processing

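The number of the 7 genes called higher was 2 in the reported fit. It stayed at 2, with EcR and Hr39, when arrays were centred, with a robust prior, with exact zeros removed, with grid trends removed, and with features summarised by their median, an alternative chosen after seeing the data. It was 1 (EcR) with arrays scaled to the same spread. It was 3, with ftz-f1 added, with array weights, with the feature of smallest SD, and where features were fitted singly and no fewer of a gene's features passed than failed. Array weights and the feature of smallest SD also called more of everything, with 2869 and 1660 of 15415 features higher, against 1021 in the reported fit. The number of the 7 genes called higher was 0 at an adjusted p under 0.01, in a test against a fold of 1.5, without a shared prior and, with each array left out in turn, in a range from 0 to 0. Those settings called 0, 15, 2 and 0 of 15415 features with limma or, for the third, an ordinary test, with 5588, 325 and 4091 at an unadjusted p under 0.05 for the first 3, and 3277 to 4710 with an array left out, so low counts are not particular to these genes. With an array left out, EcR ranged from 0.35 to 0.40, Hr39 from 0.32 to 0.44 and ftz-f1 from 0.30 to 0.46, and their unadjusted p stayed at or below 0.0440 with limma. No gene of the 7 was called lower in any of 15 alternatives. At an adjusted p under 0.01 and with an array left out, 0 features of any kind were called, so those settings could not show one. Without a shared prior, 1 of 15415 features was called lower. With array weights, which called 37.7% of all features, Hr3 read -0.01 and Eip78C 0.17. Hr96 read -0.083 with its feature of smallest SD, and dib was not called with a robust prior (adjusted p 0.0506 with limma). Leaving out single features was also chosen after seeing the data. No paired analysis was possible because there is 1 group, set against 1 control RNA.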

Other observations

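Within the lists of the ecdysone pathway, some genes that did not pass read far apart in the 3 pools, and those given here were named after their values were seen. Cyp18a1, for the cytochrome P450 that inactivates ecdysone, read -1.91, -0.95 and -0.52 in sva53 pools 1, 2 and 3, with features at -1.15 and -1.10 (adjusted p 0.0825 with limma). The synthesis gene spo read -1.13, -0.86 and -0.10 (adjusted p 0.118). E(bx), for a subunit of a nucleosome remodelling factor, read -0.03, 0.34 and 0.75 (adjusted p 0.222). These genes differed between pools by more than EcR, whose values lay within 0.34 to 0.45.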
